A study of Homo sapiens with 6 samples.

Results

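The members described here were the G1 cyclins and the inhibitors of cyclin-dependent kinases, taken as 10 named genes. They were the inhibitors CDKN1A, CDKN1B, CDKN1C, CDKN2B, CDKN2C and CDKN2D, and the cyclins CCND1, CCND3, CCNE1 and CCNE2. Every probe whose gene name in the array files equals one of these symbols was kept, and each probe was described apart. All 10 genes were represented, by 12 of the 58201 non-control probes of the array. CDKN1B and CCNE2 had 2 probes each. Of the 12 probes, 11 of 9 genes passed the filter on dim probes, which left 31857 probes in all, and the probe of CDKN2B did not.

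Cells commit to DNA replication in late G1. D-type cyclins activate CDK4 and CDK6 and E-type cyclins activate CDK2, and these kinases phosphorylate the retinoblastoma protein and its relatives, which frees E2F transcription factors to switch on S phase genes. The INK4 inhibitors (CDKN2 genes) bind CDK4 and CDK6, whereas the Cip/Kip inhibitors (CDKN1 genes) bind cyclin-CDK complexes and are best known for blocking CDK2. In breast epithelium estrogen and HER2 signalling feed into this switch largely through cyclin D1, and CDK4 and CDK6 are drug targets in ER-positive disease.

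RNA came from BT474, an established human breast cancer line that is ER-positive and carries amplified HER2. The cells had been stably transfected with an empty pcDNA3.1 plasmid (Control BT474 cells) or with a variant of the noncoding RNA NR2F1-AS1. The variants were the long variant 1 (BT474-Var1 cells) and the short variant 4 (BT474-Var4 cells). All 3 groups then passed through antibiotic selection. The paper reports that few cells of the variant populations survived and that these later formed colonies. It describes no such loss for Control cells, so this survival and the variants cannot be told apart. The comparison asks how the G1 regulators stand in cells that overexpress either variant, which the study examined for slowed proliferation. The paper also reports increases of p21 (CDKN1A) and p27 (CDKN1B) in BT474-Var1 and BT474-Var4 cells, after examining gene expression and protein. Each group had 2 arrays (A and B), 6 one-color Agilent arrays in all. Nothing in the labels or methods says that the 2 arrays of a group came from separate cultures, so the p-values measure only the spread between these samples, which may be technical. The variants were cloned in different pcDNA3.1 backbones, and which empty backbone the Control cells of these arrays carried is not given in the sources used here.

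Values are log2 intensities relative to the 75th percentile of the same array, so that 0 is that percentile and 1 unit is a doubling. A probe's level cannot be set against that of another probe. A probe was called when its adjusted p fell under 0.05. The arrays lay on 1 slide, between 47.6% and 57.5% of probes were well above background (lowest on BT474-Var4 array B), no spot was saturated, and arrays of a group correlated at r = 0.980 to 0.987. Both BT474-Var1 arrays lay in slide column 2 and the other 4 arrays in column 1. Slide column and variant 1 therefore cannot be told apart. The Control arrays lay in slide rows 1 and 2, and the arrays of each variant in rows 3 and 4. For either variant against Control, slide row and variant cannot be told apart. The labels held at the plasmids' own gene: probe A_19_P00320140 of NR2F1-AS1 read -0.42 and -0.51 on the BT474-Var1 arrays and was not well above background on the other 4. Probe A_24_P51080 read 1.67 and 1.50 on the BT474-Var4 arrays, was not well above background on 3 of the others, and read -4.25 on Control array B. All 10 luminal and HER2 markers (among them KRT19, ERBB2 and FOXA1) were well above background on all 6 arrays. The fibroblast collagens COL1A2 and COL3A1 and the basal keratin KRT5 were so on none, although 1 probe each for COL1A1, CDH5 and PTPRC was on all 6. CD3E was so on 5 arrays, the basal KRT14 on 4, the fibroblast DCN on 2 and the basal TP63 and endothelial PECAM1 on 1 each. Mean DCN was 3.83 above Control in BT474-Var4 cells, and KRT14 was 1.35 and 1.02 above it in BT474-Var1 and BT474-Var4 cells. The part of these probes in the members' levels was not tested.

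The CDKN1A and CDKN1B probes are shown because the first carries the one change of 2-fold or more and the second was called where another probe of its gene was not. From general knowledge of these genes both lie in coding sequence, which was not checked against an annotation here. The CDKN1A probe A_24_P89457 lies in hg19 at chr6:36652178-36652237 and the CDKN1B probe A_23_P204696 at chr12:12871119-12871178, and each is 60 bases with a GC content of 55.0%.

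CDKN1A A_24_P89457: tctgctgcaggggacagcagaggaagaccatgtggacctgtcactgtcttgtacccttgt
CDKN1B A_23_P204696: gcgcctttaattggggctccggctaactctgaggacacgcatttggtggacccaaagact

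Promoter windows are shown for the inhibitor that rose most in BT474-Var4 cells (CDKN1A), the inhibitor that rose most in BT474-Var1 cells (CDKN2D) and the cyclin that fell in both (CCNE1). They are the 250 bases before the RefSeq transcript start in GRCh38.p14, read 5′ to 3′ on the gene's strand. CDKN1A lies on the plus strand at chr6:36678464-36678713, CCNE1 on the plus strand at chr19:29811741-29811990 and CDKN2D on the minus strand at chr19:10568980-10569229. Capitals mark GC boxes (GGGCGG, bound by SP1-type factors) on either strand, overlapping matches included.

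CDKN1A: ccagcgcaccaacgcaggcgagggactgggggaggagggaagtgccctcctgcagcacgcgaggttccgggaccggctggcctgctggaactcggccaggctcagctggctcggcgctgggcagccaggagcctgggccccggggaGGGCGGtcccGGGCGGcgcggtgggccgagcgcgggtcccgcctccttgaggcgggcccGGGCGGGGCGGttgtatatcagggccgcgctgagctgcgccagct
CDKN2D: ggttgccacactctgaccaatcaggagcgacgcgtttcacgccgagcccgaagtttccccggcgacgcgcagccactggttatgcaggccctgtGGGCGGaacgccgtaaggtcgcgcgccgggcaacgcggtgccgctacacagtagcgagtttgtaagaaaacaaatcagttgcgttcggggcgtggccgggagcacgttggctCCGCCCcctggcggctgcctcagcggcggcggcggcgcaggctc
CCNE1: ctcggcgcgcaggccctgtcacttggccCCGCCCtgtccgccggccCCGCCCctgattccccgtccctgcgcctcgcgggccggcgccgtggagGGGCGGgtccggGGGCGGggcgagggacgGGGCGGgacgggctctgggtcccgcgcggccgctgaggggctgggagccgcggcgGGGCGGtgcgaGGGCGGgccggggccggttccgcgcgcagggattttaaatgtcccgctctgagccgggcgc

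The CCNE1 window held 7 GC boxes, that of CDKN1A 4 and that of CDKN2D 2. At least 1 such match stood in 42.6% of the 35116 promoter windows of the same length. None of the 3 windows held an E2F-type core on either strand, searched as TTCGCGC and with its variants spelled TTGGCGC, then TTCCCGC, then TTGCCGC, although 10.9% of all windows held at least 1 of them. None held the E-box spelled CACGTG, present in 6.3% of all windows. These matches describe letters, and no binding was measured. Other spellings of an E2F site, and bases after the transcript start, were not searched. The search therefore cannot show that a promoter lacks such a site.

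Against Control cells, BT474-Var1 cells had more CDKN2D and less CCNE1. BT474-Var4 cells had more CDKN1A and CDKN1C, less CDKN2C and, as in BT474-Var1 cells, less CCNE1. CCND1 was not called in any comparison. In BT474-Var1 cells 5 of the 11 tested member probes were called, 2 higher and 3 lower, where 34.4% of all tested probes were called (14.1% higher and 20.3% lower). None of the 5 reached 2-fold, which 3.94% of all probes did. In BT474-Var4 cells 5 were called as well, 3 higher and 2 lower, beside 24.2% of all probes (9.87% higher and 14.3% lower), and CDKN1A alone reached 2-fold (3.17% of all probes). Between the variants 7 of 11 were called, 4 higher and 3 lower in BT474-Var4 cells, beside 41.2% of all probes (20.4% higher and 20.7% lower), and none reached 2-fold (6.87% of all probes). The members' shares were above those of the array in each comparison, on 11 probes, and that difference was not tested. All 11 were well above background on all 6 arrays, unlike part of the tested probes. When only such probes were tested, 11581, 8703 and 12929 of 26709 were called, a larger part in each comparison. CCNE2 A_33_P3247022 then gained a call with each variant. The shares set beside the gene lists below are also those of all tested probes. The median difference of all tested probes was -0.04, -0.08 and -0.03 in these comparisons, and that of the 11 member probes was -0.01, -0.05 and 0.14. Because the first pair of comparisons shares the Control arrays, a difference between the variants rests on their direct comparison.

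**Figure D1:**
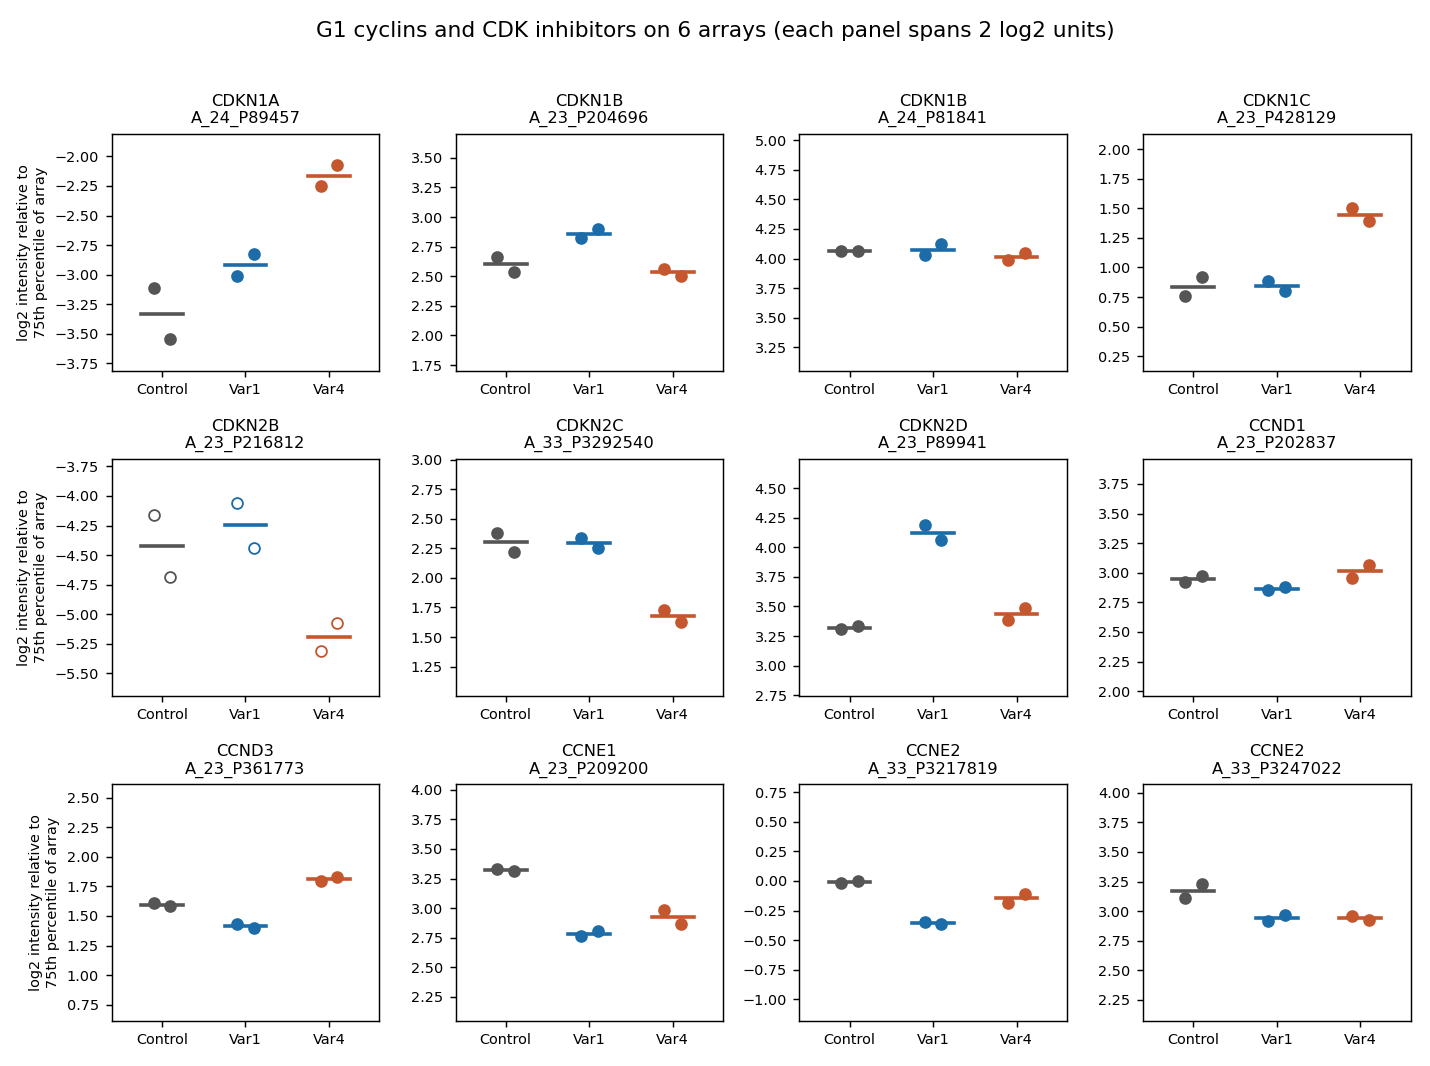
The log2 intensity relative to the array's 75th percentile (vertical axis) is plotted for each of the 12 member probes on the 6 arrays, with both arrays of a group as points and their mean as a line; open points were not well above background. CDKN2D stands apart in BT474-Var1 cells, and CDKN1A, CDKN1C and CDKN2C stand apart in BT474-Var4 cells.

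CDKN1A encodes p21, the Cip/Kip inhibitor that p53 induces after DNA damage. Its probe read -3.11 and -3.54 in Control, -3.01 and -2.83 in BT474-Var1 and -2.25 and -2.08 in BT474-Var4 samples. Both BT474-Var4 arrays were above the other 4, and the BT474-Var1 arrays lay just above the higher Control array. The log2 difference from Control was 1.16 ± 0.17 (SE) in BT474-Var4 cells, 2.24-fold (adjusted p = 0.0164), and 0.41 ± 0.17 in BT474-Var1 cells (adjusted p = 0.139). The direct difference between the variants was 0.76 ± 0.17, higher in BT474-Var4 cells (adjusted p = 0.0282). The order was therefore Control, BT474-Var1 and BT474-Var4, in which the lower neighbours did not differ beyond the threshold. The increase of p21 that the paper reports in BT474-Var1 cells was thus not called on these arrays.

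The CDKN1A signal was faint. The probe was flagged well above background on all 6 arrays, but its processed intensity was 12.5 and 9.07 in Control, 12.2 and 13.9 in BT474-Var1 and 23.4 and 27.1 in BT474-Var4 samples. The mean spot signal was 32.1 beside a local background of 27 on Control array A, and 29.5 beside 29 on Control array B. The Control level was therefore close to background, and the size of the fold against it is uncertain. With normexp background correction, which compresses dim probes, the BT474-Var4 difference from Control was 0.28 and kept its call (adjusted p = 0.00409), the BT474-Var1 difference was 0.17 and gained one (adjusted p = 0.0214), and that between the variants was 0.11 and lost its call (adjusted p = 0.0796). The call in BT474-Var4 cells was lost with the methods' analysis of variance (adjusted p = 0.0576), when all probes were tested without a filter (adjusted p = 0.0776), without Control array B (0.95, adjusted p = 0.0557), without BT474-Var4 array A (1.25, adjusted p = 0.0592) and without BT474-Var4 array B (1.08, adjusted p = 0.0762). The call between the variants was lost in 8 of the 15 alternatives. Among them were leaving out either array of either variant and testing without a filter on dim probes.

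CDKN1C encodes p57, an imprinted Cip/Kip inhibitor associated with cells that leave the cycle during development. The probe A_23_P428129 (hg19 chr11:2904903-2904962) read 0.76 and 0.92 in Control, 0.88 and 0.80 in BT474-Var1 and 1.50 and 1.39 in BT474-Var4 samples. Both BT474-Var4 arrays were above the other 4, among which Control and BT474-Var1 overlapped. The difference from Control was 0.61 ± 0.08 in BT474-Var4 cells, 1.52-fold (adjusted p = 0.0143), and 0.00 ± 0.08 in BT474-Var1 cells, with a 95% interval of -0.22 to 0.23 (adjusted p = 0.977). Between the variants it was 0.60 ± 0.08 (adjusted p = 0.00803), and that call was kept under all 15 alternatives. The call against Control was lost in 5 of the 15 alternatives. It was lost on leaving out either Control array or either BT474-Var4 array (0.53 to 0.69). It was also lost when all probes were tested without a filter (adjusted p = 0.0832).

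CDKN1B encodes p27, the Cip/Kip inhibitor that holds CDK2 in check in resting cells and is mainly set by degradation through SKP2. Its probe printed above, A_23_P204696, read 2.66 and 2.54 in Control, 2.82 and 2.90 in BT474-Var1 and 2.56 and 2.50 in BT474-Var4 samples. The BT474-Var1 arrays were highest, and Control and BT474-Var4 overlapped. The difference was 0.26 ± 0.07 with variant 1 (adjusted p = 0.0498) and -0.07 ± 0.07 with variant 4 (adjusted p = 0.526), and between the variants -0.33 ± 0.07 (adjusted p = 0.0241). The first of these sat at the threshold and was lost in 11 of the 15 alternatives, including when any 1 of the 6 arrays was left out (adjusted p = 0.0818 to 0.182). The call between the variants was lost in 5 of the 15 alternatives. It was lost without any 1 of the 4 variant arrays, and when all probes were tested without a filter (adjusted p = 0.115).

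The other CDKN1B probe, A_24_P81841 (hg19 chr12:12874940-12874999), lies nearer the 3′ end of the gene. It read 4.06 and 4.06 in Control, 4.03 and 4.12 in BT474-Var1 and 3.99 and 4.04 in BT474-Var4 samples. The differences were 0.01 ± 0.06 in BT474-Var1 cells (95% interval -0.15 to 0.17) and -0.05 ± 0.06 in BT474-Var4 cells, neither called (adjusted p = 0.901 and 0.599). The interval of this probe in BT474-Var1 cells did not reach the 0.26 of the other probe, whose own interval (0.07 to 0.45) overlapped with it, and the difference between the probes was not tested. The increase of p27 that the paper reports in BT474-Var4 cells was not seen in RNA with either probe.

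Of the INK4 inhibitors, CDKN2D was called against Control in BT474-Var1 cells and CDKN2C in BT474-Var4 cells, and each differed between the variants directly. CDKN2D, which encodes p19 (INK4d), read 3.31 and 3.34 in Control, 4.19 and 4.06 in BT474-Var1 and 3.38 and 3.48 in BT474-Var4 samples with the probe A_23_P89941 (hg19 chr19:10677226-10677285). The BT474-Var1 arrays stood clear of the other 4. The difference from Control was 0.80 ± 0.07 in BT474-Var1 cells, 1.74-fold (adjusted p = 0.00478), against 0.11 ± 0.07 in BT474-Var4 cells, whose 95% interval ran from -0.08 to 0.30 (adjusted p = 0.311). The direct difference was -0.69 ± 0.07, lower in BT474-Var4 cells (adjusted p = 0.00411). Both calls were kept under all 15 alternatives, with adjusted p between 3.78e-08 and 0.0412 for the first. As stated above, slide column cannot be told apart from variant 1, or slide row from a difference between either variant and Control.

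CDKN2C encodes p18 (INK4c), which restrains luminal progenitor cells in the mammary gland. The probe A_33_P3292540 (hg19 chr1:51439963-51440022) read 2.38 and 2.22 in Control, 2.34 and 2.25 in BT474-Var1 and 1.73 and 1.63 in BT474-Var4 samples. Both BT474-Var4 arrays were below the other 4, and Control and BT474-Var1 overlapped. The difference from Control was -0.62 ± 0.08 in BT474-Var4 cells, 1.54-fold lower (adjusted p = 0.0139), and -0.01 ± 0.08 in BT474-Var1 cells, with a 95% interval of -0.23 to 0.22 (adjusted p = 0.964). Between the variants it was -0.62 ± 0.08 (adjusted p = 0.00785), called under all 15 alternatives. The call against Control was lost in 4 of the 15 alternatives. It was lost without Control array A (-0.54), without Control array B (-0.70) and without BT474-Var4 array B (-0.57). It was also lost when all probes were tested without a filter (adjusted p = 0.081).

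CDKN2B encodes p15, an INK4 inhibitor induced by TGF-beta. Its probe A_23_P216812 (hg19 chr9:22008979-22009038) was not well above background on any array, with readings of -4.16 and -4.68, -4.06 and -4.44, and -5.31 and -5.07 on the Control, BT474-Var1 and BT474-Var4 arrays. No fold or test is given for it.

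**Figure D2:**
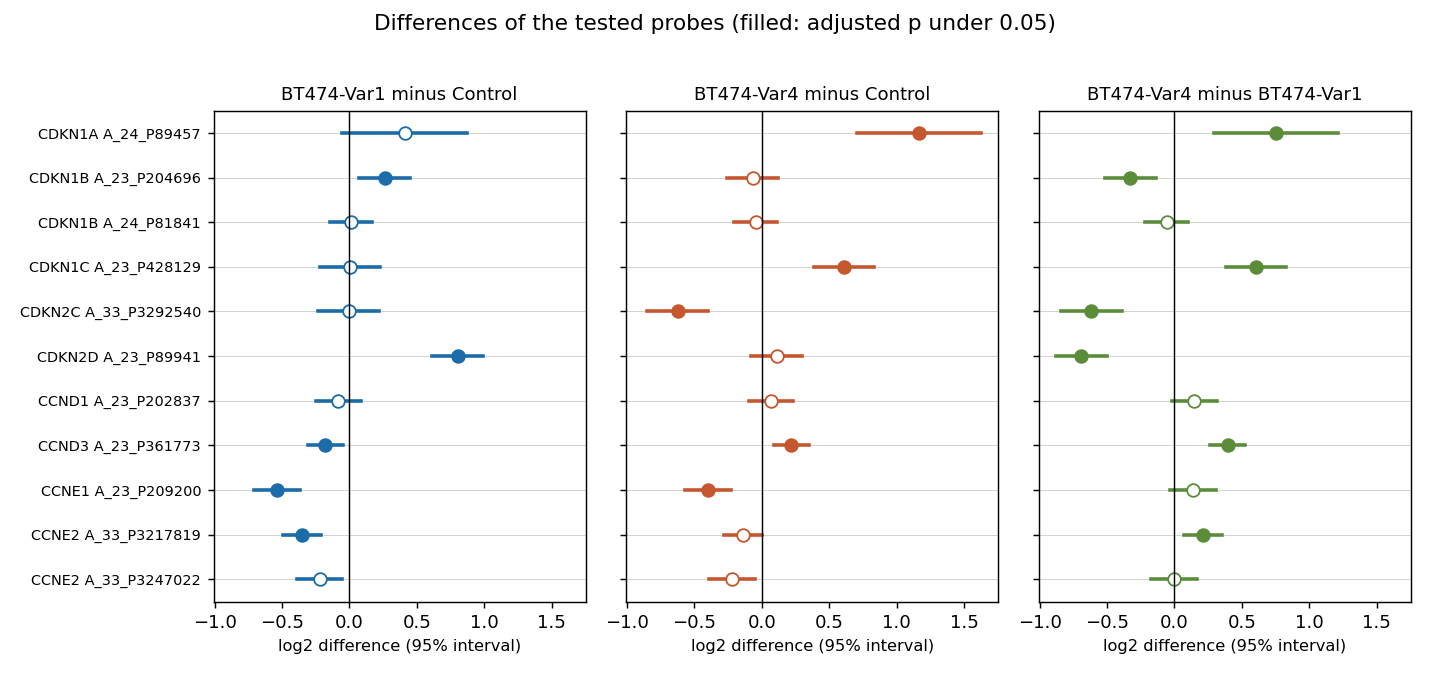
Log2 differences (horizontal axis) of the 11 tested member probes are plotted for the 3 comparisons with their 95% intervals, and filled points had an adjusted p under 0.05. CDKN2D is called in BT474-Var1 cells at 0.80 and not in BT474-Var4 cells, CDKN2C is called at -0.62 in BT474-Var4 cells and not in BT474-Var1 cells, and CCNE1 is called on the lower side in both.

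Cyclin D1 (CCND1), the D-type cyclin that estrogen and HER2 signalling induce, changed little. Its probe A_23_P202837 (hg19 chr11:69468233-69468292) was printed as 10 spots, whose SD on an array was 0.04 to 0.07. It read 2.92 and 2.98 in Control, 2.85 and 2.88 in BT474-Var1 and 2.96 and 3.07 in BT474-Var4 samples. The BT474-Var4 arrays overlapped with Control, and the BT474-Var1 arrays lay just below it. The difference was -0.08 ± 0.06 in BT474-Var1 cells (95% interval -0.25 to 0.08, adjusted p = 0.365), 0.07 ± 0.06 in BT474-Var4 cells (-0.10 to 0.23, adjusted p = 0.472) and 0.15 ± 0.06 between the variants (-0.02 to 0.31, adjusted p = 0.123). The last was called with normexp background correction (0.19, adjusted p = 0.0106) and with a trended, robust variance (adjusted p = 0.0286).

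Cyclin D3 (CCND3), another partner of CDK4 and CDK6, moved in opposite directions in the transfected populations. The probe A_23_P361773 (hg19 chr6:41903193-41903252) read 1.61 and 1.59 in Control, 1.43 and 1.40 in BT474-Var1 and 1.80 and 1.83 in BT474-Var4 samples. All BT474-Var1 values were below and all BT474-Var4 values above both Control values. The difference from Control was -0.18 ± 0.05 with variant 1 (adjusted p = 0.0496) and 0.22 ± 0.05 with variant 4 (adjusted p = 0.0409). The direct difference was 0.40 ± 0.05, 1.32-fold (adjusted p = 0.0061), and was lost only when all probes were tested without a filter on dim probes (adjusted p = 0.0562). For BT474-Var1 cells the call against Control was lost in 10 of the 15 alternatives, and for BT474-Var4 cells in 9. Both were lost when any 1 of the 6 arrays was left out. With quantile normalization the BT474-Var1 difference was -0.09 (adjusted p = 0.232).

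Cyclin E1 (CCNE1), which activates CDK2 at the entry to S phase and is itself an E2F target, fell in both populations. The probe A_23_P209200 (hg19 chr19:30315106-30315165) read 3.33 and 3.31 in Control, 2.76 and 2.81 in BT474-Var1 and 2.98 and 2.86 in BT474-Var4 samples. The 4 arrays of transfected variants were all below both Control arrays, and BT474-Var1 lay below BT474-Var4 without overlap. The difference was -0.54 ± 0.06 in BT474-Var1 cells, 1.45-fold lower (adjusted p = 0.00723), and -0.40 ± 0.06 in BT474-Var4 cells, 1.32-fold lower (adjusted p = 0.0191). Between the variants the difference of 0.14 ± 0.06 was not called (95% interval -0.03 to 0.31, adjusted p = 0.15), but was with normexp background correction (0.21, adjusted p = 0.00881) and with a trended, robust variance (adjusted p = 0.0408). The BT474-Var1 call was lost only when all probes were tested without a filter (adjusted p = 0.0538). The BT474-Var4 call was lost there too (adjusted p = 0.113) and without Control array A (-0.39, adjusted p = 0.0954), Control array B (-0.41, adjusted p = 0.09) or BT474-Var4 array B (-0.34, adjusted p = 0.0696).

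Cyclin E2 (CCNE2) had 2 probes on chromosome 8. The probe A_33_P3217819 read -0.01 and 0.00 in Control, -0.35 and -0.37 in BT474-Var1 and -0.18 and -0.11 in BT474-Var4 samples. The groups did not overlap and stood in the order BT474-Var1, BT474-Var4, Control. It was called at -0.35 ± 0.05 in BT474-Var1 cells (adjusted p = 0.0119) and at 0.21 ± 0.05 between the variants (adjusted p = 0.0369), but not in BT474-Var4 cells (-0.14 ± 0.05, adjusted p = 0.123). The first call was lost in 5 of the 15 alternatives. It was lost without either Control array or either BT474-Var1 array, and without a filter on dim probes (adjusted p = 0.0879). The second was lost in 10 of the 15 (adjusted p up to 0.196), among them leaving out any 1 of the 6 arrays.

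The other CCNE2 probe, A_33_P3247022, read 3.11 and 3.23 in Control, 2.92 and 2.97 in BT474-Var1 and 2.96 and 2.93 in BT474-Var4 samples. Both populations lay below Control and overlapped with each other. Neither difference passed the test, at -0.22 ± 0.06 in each (adjusted p = 0.0572 and 0.0684), although both were called with normexp background correction (adjusted p = 0.00356 and 0.0196), with a trended, robust variance (0.00313 and 0.00386) and when only probes bright on all 6 arrays were tested (0.038 and 0.0461). The direct contrast of the variants was called with the other probe and not with this one, at 0.00 ± 0.06 (95% interval -0.17 to 0.17, adjusted p = 0.979).

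Across the members, the 2 arrays of the compared groups did not overlap for 8 of 11 probes in BT474-Var1 cells, 9 in BT474-Var4 cells and 9 between the variants, beside 71.8%, 68.7% and 74.7% of all tested probes.

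**Figure D3:**
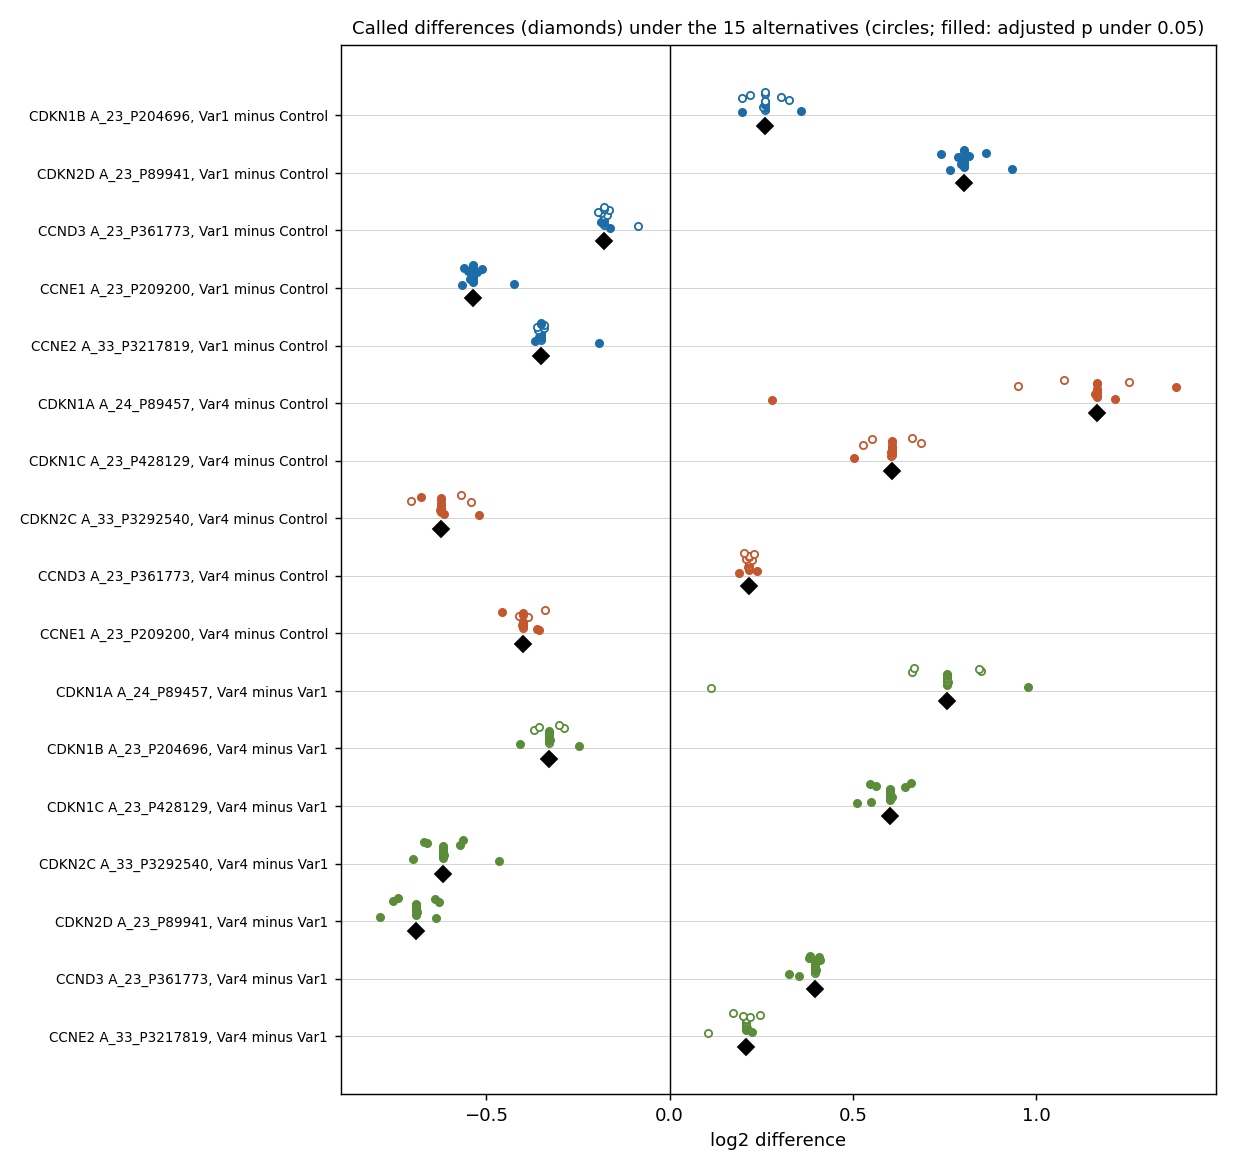
Each called log2 difference (diamond) is plotted with its value under the 15 alternatives (circles, filled where the adjusted p was under 0.05, some of them hidden by others of equal value). No call changed sign; the calls for CDKN2D in BT474-Var1 cells, and for CDKN1C, CDKN2C and CDKN2D between the variants, are filled throughout.

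The kinases that the members act on were lower or mixed. Of 9 tested genes for CDK4, CDK6, CDK2 and their activators, 7 fell and none rose in BT474-Var1 cells, where 20.3% of all probes fell, and in BT474-Var4 cells 4 fell and 3 rose, where 14.3% of all probes fell and 9.87% rose. CDK6, the kinase shared by D cyclins and INK4 inhibitors, stood 1.03 ± 0.05 higher in BT474-Var4 cells than in Control (adjusted p = 0.00311), -0.20 ± 0.05 in BT474-Var1 cells (adjusted p = 0.0464), and the gap between the variants was 1.22 ± 0.05, in favour of BT474-Var4 (adjusted p = 0.0012). CDK4 fell in both (-0.43 ± 0.07 and -0.31 ± 0.07, adjusted p = 0.014 and 0.0404), as did CDK2 (-0.52 ± 0.12 and -0.50 ± 0.12, adjusted p = 0.0336 and 0.047). The largest called changes in BT474-Var1 cells were the kinase chaperone CDC37 (-0.73), the phosphatase CDC25A (-0.71) and cyclin A2, CCNA2 (-0.55). In BT474-Var4 cells, beside CDK6, they were MNAT1 (0.59) and CCNH (0.58), both parts of the CDK-activating kinase. Between the variants 6 of 9 were higher and none lower in BT474-Var4 cells (20.4% and 20.7% of all probes), led by CDK6, MNAT1 (0.64) and CDC25A (0.51). Without Control A and Control B, 4 and 3 genes fell in BT474-Var1 cells, and without Control A, Control B, BT474-Var4 A and BT474-Var4 B, 0, 0, 1 and 1 fell in BT474-Var4 cells (2 and 2 rose without the Control arrays). CCND2 and CCNA1 were too dim to test.

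The list of pocket proteins, which hold E2F targets down, and of genes around the DREAM complex gave calls in both directions. In BT474-Var1 cells 1 of 10 rose and 4 fell (14.1% and 20.3% of all probes), with MYBL2 (-0.35), LIN9 (-0.31) and LIN54 (-0.30) the largest, and in BT474-Var4 cells 2 rose and 1 fell (9.87% and 14.3% of all probes), RB1 (0.32), DYRK1A (0.32) and MYBL2 (-0.52). Between the variants 3 were higher and 1 lower in BT474-Var4 cells (20.4% and 20.7% of all probes), where DYRK1A (0.58), LIN37 (-0.40) and LIN52 (0.28) led. RB1, the retinoblastoma gene, was called in BT474-Var4 cells (adjusted p = 0.021) and not in BT474-Var1 cells (0.19 ± 0.05, adjusted p = 0.0531) or between them (0.13 ± 0.05, adjusted p = 0.119). RBL1 was dim, with differences of -0.18 ± 0.17 and -0.32 ± 0.17, and RBL2 gave -0.15 ± 0.07 and -0.10 ± 0.07, none of them called. Counts in this list were small and not stable: without any 1 Control or BT474-Var1 array none was called in BT474-Var1 cells, without either Control array none was called in BT474-Var4 cells, without either BT474-Var4 array none rose there, and with quantile normalization 3 rose and 2 fell in BT474-Var1 cells. Between the variants 1 was higher without BT474-Var1 B, BT474-Var4 A or BT474-Var4 B.

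Some E2F and DP genes fell in each population. In BT474-Var1 cells 6 of 10 fell and none rose (20.3% of all probes fell), with E2F8 (-0.77), E2F3 (-0.69) and E2F5 (-0.53) the largest. In BT474-Var4 cells 5 fell and none rose (14.3% of all probes fell), with TFDP1 (-0.55), E2F1 (-0.51) and E2F8 (-0.35) the largest, and without either Control array none of the 5 was called. Without BT474-Var4 A or B 2 fell, without BT474-Var1 A or B 3 fell, and with quantile normalization 1 rose and 5 fell in BT474-Var4 cells. In BT474-Var1 cells 2, 4 and 4 fell without Control A, Control B and BT474-Var1 A. For E2F1 the falls were -0.32 ± 0.06 with variant 1 (adjusted p = 0.0189) and -0.51 ± 0.06 with variant 4 (adjusted p = 0.0101), and the variants did not differ beyond the threshold (-0.19 ± 0.06, adjusted p = 0.0627). Between the variants 5 of 10 were higher and none lower in BT474-Var4 cells (20.4% and 20.7% of all probes), led by E2F5 (0.49), E2F8 (0.42) and E2F6 (0.40), and with quantile normalization 4 were higher and 1 lower.

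Of 35 S phase genes driven by E2F, none rose and 22 fell in BT474-Var1 cells (20.3% of all tested probes fell), and none rose and 27 fell in BT474-Var4 cells (14.3% of all tested probes fell). The medians were -0.26 and -0.41. GINS2, of the replicative helicase, led both (-0.99 and -0.92), followed by DSCC1 (-0.76) and GINS4 (-0.68) in BT474-Var1 cells and by DNA ligase LIG1 (-0.79) and RRM2 of ribonucleotide reductase (-0.73) in BT474-Var4 cells. Between the variants 3 were higher and 9 lower in BT474-Var4 cells, with LIG1 (-1.01), RRM2 (-0.47) and POLA1 (-0.46) the largest. These became 2 higher and 6 lower without Control A or Control B, 1 and 4 without BT474-Var1 A or BT474-Var4 B, 0 and 6 without BT474-Var1 B, and 1 and 6 without BT474-Var4 A. With quantile normalization 2 genes of this list rose and 13 fell in BT474-Var1 cells. When all probes were tested without a filter on dim probes, 5 fell in BT474-Var1 cells and 1 in BT474-Var4 cells. Leaving out an array lowered the counts as well: in BT474-Var1 cells 7 fell without Control array A, 8 without Control array B, 9 without BT474-Var1 array A and 10 without BT474-Var1 array B, and in BT474-Var4 cells 6, 5, 14 and 11 fell without Control A, Control B, BT474-Var4 A and BT474-Var4 B.

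Of 12 proliferation markers 9 fell and none rose in each population (beside 20.3% and 14.3% of all probes that fell), with medians of -0.52 and -0.39. TOP2A (-0.67), CCNB1 (-0.66) and FOXM1 (-0.65) led in BT474-Var1 cells, and MKI67 (-0.77), AURKB (-0.74) and TOP2A (-0.59) in BT474-Var4 cells, where the count was 1, 1, 3 and 1 without Control A, Control B, BT474-Var4 A and BT474-Var4 B. Between the variants FOXM1 alone was called (0.41). MKI67, the gene of the Ki-67 antigen, had 3 probes, of which A_33_P3374210 and A_24_P346855 fell in both populations (-0.58 and -0.77, and -0.62 and -0.49), whereas A_33_P3374205 was called in neither (-0.16 and -0.31, adjusted p = 0.203 and 0.06). These lists moved alongside the fall of CCNE1. By gene set enrichment, the paper had already reported lower E2F targets and G2M checkpoint genes in both populations. In bulk RNA, fewer cells in S phase and less RNA per cell cannot be told apart, and their part in the levels of the members was not tested.

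One list held genes around the ubiquitin ligases that degrade G1 cyclins and inhibitors, not all of them with a shown part in that degradation. Of these, 3 of 15 rose and 5 fell in BT474-Var1 cells (14.1% and 20.3% of all probes), with CUL1 (-0.54), FBXO4 (0.45) and AMBRA1 (0.40) the largest. In BT474-Var4 cells none rose and 3 fell (9.87% and 14.3% of all probes), SKP2 (-0.57), CKS2 (-0.35) and DTL (-0.22). Between the variants 2 were higher and 3 lower in BT474-Var4 cells (20.4% and 20.7% of all probes), led by CUL1 (0.40), FBXW7 (-0.37) and AMBRA1 (-0.27). These counts too fell on leaving out 1 array, to 0 in both directions without Control A in BT474-Var1 cells, without Control B, BT474-Var4 A or BT474-Var4 B in BT474-Var4 cells, and without BT474-Var1 A, BT474-Var4 A or BT474-Var4 B between the variants. With quantile normalization 4 rose and 2 fell in BT474-Var1 cells. SKP2, the receptor that marks p27 protein for degradation, was called in BT474-Var4 cells (adjusted p = 0.0214), where neither CDKN1B probe was called. It was not called in BT474-Var1 cells (-0.28 ± 0.10, adjusted p = 0.0872) or directly between the variants (-0.29 ± 0.10, adjusted p = 0.0705). The arrays measured RNA, so the CDKN1B probes cannot show what became of p27 protein.

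The p53 targets, among which CDKN1A is usually counted but was kept out of the list, gave calls in both directions. Of 25 tested genes 12 rose and 1 fell in BT474-Var4 cells (median 0.23, beside 9.87% and 14.3% of all probes), and in BT474-Var1 cells 5 rose and 9 fell (median -0.09, beside 14.1% and 20.3% of all probes). In BT474-Var1 cells 1 rose and 4 fell without Control A, 4 and 5 without Control B or BT474-Var1 A, and 2 and 4 without BT474-Var1 B. Without Control A, Control B, BT474-Var4 A and BT474-Var4 B, 4, 4, 4 and 3 rose in BT474-Var4 cells, and none fell without any 1 of the 6 arrays. The death receptor FAS passed the test there, but was well above background on both BT474-Var4 arrays, on 1 of the 2 Control arrays and on neither BT474-Var1 array, so no size is given for it. GADD45A (0.81) and the TRAIL receptor TNFRSF10B (0.69) also rose. In BT474-Var1 cells BBC3 (1.15) and BAX (1.02), both pro-apoptotic, rose and AEN fell (-0.78). With quantile normalization 8 rose and 7 fell there. Between the variants 13 were higher and 3 lower in BT474-Var4 cells (20.4% and 20.7% of all probes), with BAX (-1.68), SESN2 (1.05) and TNFRSF10B (1.00) the largest. TIGAR was not found under that symbol and SPATA18 was too dim to test.

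Without the filter on dim probes fewer genes of the other lists were called too. In BT474-Var1 cells 3 genes of the kinase list, 2 of the E2F and DP list and 6 proliferation markers fell, 1 p53 target rose and 1 fell, and no pocket protein or ubiquitin ligase gene was called. In BT474-Var4 cells CDK4, CDK6, CDK2 and their activators gave 1 gene that rose, and no gene of the E2F and DP, pocket protein, ubiquitin ligase, p53 or proliferation lists was called. Between the variants 2 genes of the kinase list, 1 of the pocket protein list and 7 p53 targets were higher and 2 p53 targets lower in BT474-Var4 cells, and none was called in the E2F and DP, ubiquitin ligase or proliferation lists.

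**Figure D4:**
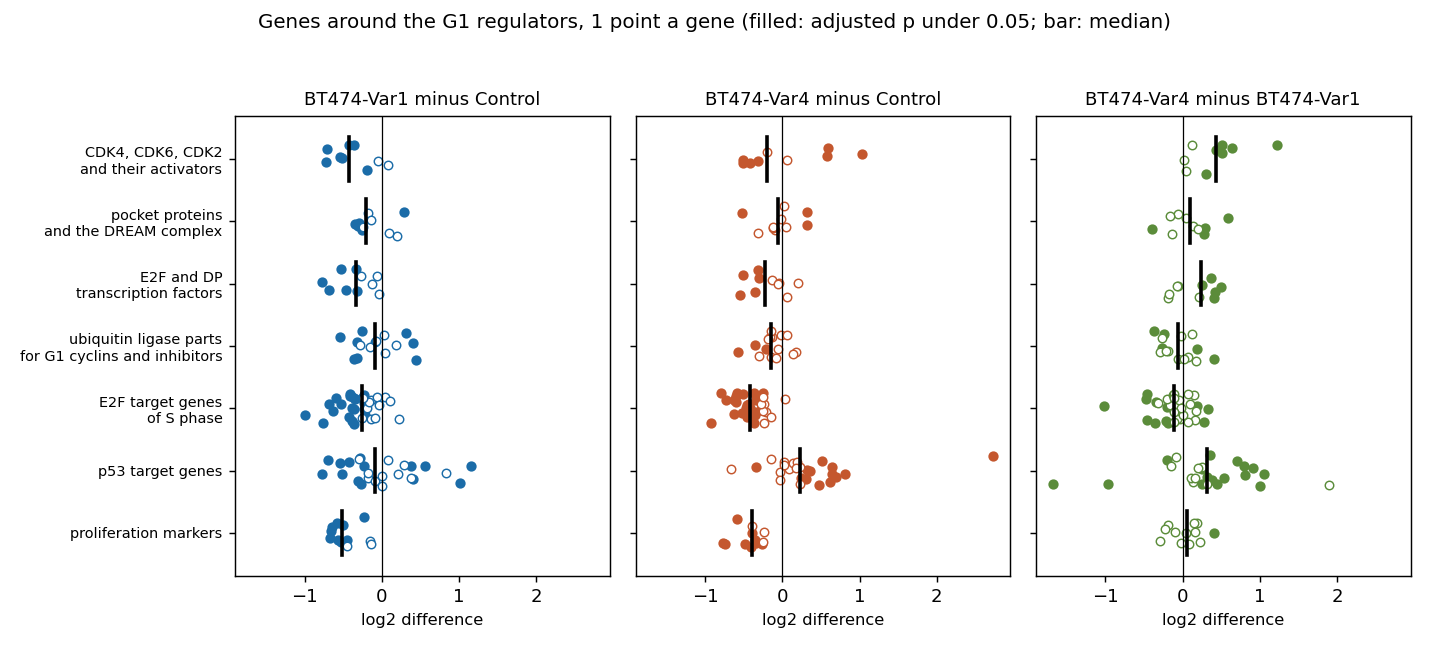
Log2 differences (horizontal axis) of the genes around the members are plotted by list for the 3 comparisons, 1 point a gene, filled where the adjusted p was under 0.05, with the list median as a bar. S phase genes and proliferation markers lie mostly below 0 in both populations, and p53 targets lie mostly above 0 in BT474-Var4 cells. The point farthest to the right against Control is FAS, which only 1 of the 2 Control arrays measured above background.

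CDKN1A had the widest range of group means of the members well above background on all 6 arrays. With normexp background correction it did not, at 0.28 in BT474-Var4 cells against 0.77 for CDKN2D in BT474-Var1 cells. Among 19004 other probes with a gene symbol, the 5 whose centered values over the 6 arrays lay nearest by Euclidean distance were those of CLIC3 (distance 0.267), MAP3K14 (0.279), DOCK8 (0.287), PYCARD (0.297) and NOL4 (0.309). Their differences from Control were 0.17 to 0.54 in BT474-Var1 cells and 0.95 to 1.17 in BT474-Var4 cells. They were chosen for this pattern, so these values are a description.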

How the data were processed

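RNA of 3 groups of BT474 cells, 2 samples each, was measured on one-color (Cy3) Agilent arrays. Per the labels, spots were read by Agilent Feature Extraction 11.5.1.1 with background subtracted, and the authors deposited the intensity of each spot on a linear scale. They also deposited a table of log2 values after a GeneSpring shift to the 75th percentile of each array. Probe positions are those of hg19 in the files. The precision is limited by the number of arrays.

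Here log2 of the processed intensity, less the array's 75th percentile over non-control probes, was used. Outlier spots were left out and a probe's spots averaged. A probe was tested where the 2 arrays of any group were well above background, by limma 3.58.1 in R 4.3.3 (a mean per group, all 6 arrays, moderated variances), with Benjamini-Hochberg adjustment over 31857 probes. All intervals are at 95%. The script was tested on simulated data. The members and lists were chosen with earlier results of these data known. All member probes are named, and from each list up to 3 called genes per comparison with the largest change, on the gene's brightest tested probe. CDK2, CDK4, CDK6, RB1, RBL1, RBL2, E2F1, SKP2 and MKI67 are named whatever their values. The 15 alternatives change the background correction, normalization, filter, variance model, value table, replicate block or samples. The letters A and B did not pair the samples (correlations of deviations -0.01, 0.05 and -0.02). Promoter sequences come from RefSeq (GRCh38.p14), which listed 7 of the 10 members.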

Additional observations from a re-analysis of the deposited data

Results flagged for a closer look

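The CCND3 probe A_23_P361773 lay below both Control arrays on the 2 BT474-Var1 arrays and above them on the 2 BT474-Var4 arrays. The difference between the variants was 0.40 ± 0.05 on the log2 scale (limma, adjusted p = 0.0061), higher in BT474-Var4 cells on all of their arrays.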

How the results depend on the processing

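The number of member probes called was 5 with variant 1, 5 with variant 4 and 7 between the variants. It was 1, 0 and 3 when all probes were tested without a filter on dim probes, where 2672, 722 and 5112 of all probes were called in place of 10958, 7710 and 13116. With only the groups compared, 3 were called with variant 1. Leaving out 1 array gave 2 to 3, 0 to 4 and 4 to 6 member probes. In all, 1501 to 5487 probes were then called with variant 4 (1501 without Control array B), 4172 to 9409 with variant 1 and 8086 to 10692 between the variants. As a replicate block, the letter A or B gave 3 member probes with variant 1, although the letters do not pair the samples, and changed the other 2 counts by less than 1.5 times (4901 of all probes with variant 4).

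No called difference changed sign under any of the 15 alternatives. Values near 0 that were not called did. With variant 1 they were -0.0966 (CDKN1B A_24_P81841) and -0.00846 (CDKN1C) with normexp, -0.00256 (CDKN1C) with the deposited values, and 0.0839 (CDKN2C) and 0.0189 (CCND1) with quantile normalization. Between the variants they were 0.068 (CDKN1B A_24_P81841) and 0.0589 (CCNE2 A_33_P3247022) with normexp, and 0.00059 for the latter with the deposited values. Leaving out 1 array gave -0.0365 to 0.0588 (CDKN1B A_24_P81841), -0.0754 to 0.0829 (CDKN1C) and -0.0871 to 0.0751 (CDKN2C) with variant 1, and -0.0278 to 0.0230 (CCNE2 A_33_P3247022) between the variants. Probes of all genes called at 2-fold or more numbered 1256, 1010 and 2187, and 170, 152 and 363 with normexp. The share of calls that were higher with variant 4 was 40.8%, 59.8% without a filter and 53.9% without Control array B. Taking a gene's mean over its probes moved 7 of the 42 list counts, by at most 3 genes. The causes were not tested. With 2 arrays a group and dim signal for CDKN1A and CDKN2B, small differences of these genes could not be resolved.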
